A study of Mus musculus with 9 samples.

Results

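The C-type lectin receptors described here are 7 mouse genes, Clec4n, Clec4d, Clec4e, Clec7a, Clec5a, Clec12a and Clec2d. They were selected by exact gene symbol from tables of 50600 genes. C-type lectin receptors are membrane proteins whose lectin-like domain binds sugars, lipids or proteins of microbes, dying cells or other cells. Most of the activating receptors in macrophages signal through an immunoreceptor tyrosine-based activation motif, carried either in their own tail or by a partner adaptor such as Fcer1g or Tyrobp, which recruits the kinase Syk and, through Card9, Bcl10 and Malt1, leads to NF-kappaB. Inhibitory members carry a motif that recruits phosphatases, and macrophages are known for pairing both kinds on one cell.

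The levels come from RNA of RAW-Blue cells, 1 mouse macrophage line that carries an inducible reporter of inflammatory signalling and was grown under the reporter's selection antibiotic in every group. Untreated cells (None) were compared with cells given lipopolysaccharide (LPS), a bacterial cell-surface glycolipid that macrophages sense, at 1 µg/ml for 24 hours, with 3 libraries in each group. The third group, which received exosome-like nanovesicles (PjELNs) for 16 hours ahead of LPS, was not analysed here, since its labels match no column name. The labels do not say whether the replicates were separate cultures, and the p-values cover only the spread between these libraries, which may be technical.

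Library totals lay between 14650825 and 17665201 estimated counts. Of 8 macrophage markers 7 passed the count filter, and the other, Mertk, was at or near 0. They summed to 11197 to 12869 TPM (transcript abundance corrected for length and depth) in None and 18984 to 21214.5 in LPS, mostly Lyz2 (mean 9714 and 16563 TPM). Cd14 was at 498 and 2329 TPM, Csf1r at 527 and 177, Cd68 at 831 and 757 and Adgre1 at 94.5 and 85.1 TPM. Markers of natural killer, T and B cells and of fibroblasts summed to at most 1.44 TPM in any library, and those of dendritic cells to at most 1.07. The neutrophil list summed to 0.66 to 1.29 TPM in None and 66.2 to 84.97 TPM in LPS, nearly all of it S100a8 (72.4 TPM on average in LPS), with Ly6g, Mpo and Cxcr2 at 0 counts, and its part in the results was not tested. LPS replicate 1 stood apart from the other LPS libraries on the next axis of variation after the group axis (3.23% of the variance). In such bulk RNA, fewer cells carrying a transcript and less of it per cell cannot be told apart.

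All 7 genes lie on chromosome 6 (GRCm38) in 3 places. Clec4n (123229843 to 123247021), Clec4d (123262117 to 123275265) and Clec4e (123281789 to 123289870) are direct neighbours, with 15.1 kb and 6.52 kb between them, and Clec4e is on the minus strand. Clec2d (129180615 to 129186534), Clec12a (129349964 to 129365303) and Clec7a (129463026 to 129472777, minus strand) lie 5.89 Mb further along, among other lectin-like genes. Clec5a (40574894 to 40585803, minus strand) lies far from both, among taste and olfactory receptor and protease genes. The deposited tables class Clec7a as a polymorphic pseudogene, a gene intact in some mouse strains and not in others, and the other 6 as protein coding.

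The upstream sequences of 3 members are shown because Clec4e and Clec4d, direct neighbours, rose together and Clec7a fell. Each line gives the 250 bases before the gene's start in RefSeq (build GRCm38.p6), 5′ to 3′ on the gene's strand, and capitals mark every match to the motifs searched on both strands.
Clec4e, chr6:123289872-123290121, minus strand: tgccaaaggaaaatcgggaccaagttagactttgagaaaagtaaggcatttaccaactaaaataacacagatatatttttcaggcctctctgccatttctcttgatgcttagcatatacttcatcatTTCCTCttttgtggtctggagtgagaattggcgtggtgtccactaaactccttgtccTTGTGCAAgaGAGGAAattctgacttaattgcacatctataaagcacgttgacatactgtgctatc
Clec4d, chr6:123261857-123262106, plus strand: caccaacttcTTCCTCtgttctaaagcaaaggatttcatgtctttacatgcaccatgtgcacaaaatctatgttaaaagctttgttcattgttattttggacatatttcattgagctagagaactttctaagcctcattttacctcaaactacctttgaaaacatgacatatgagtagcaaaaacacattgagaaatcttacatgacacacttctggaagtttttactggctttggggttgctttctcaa
Clec7a, chr6:129472786-129473035, minus strand: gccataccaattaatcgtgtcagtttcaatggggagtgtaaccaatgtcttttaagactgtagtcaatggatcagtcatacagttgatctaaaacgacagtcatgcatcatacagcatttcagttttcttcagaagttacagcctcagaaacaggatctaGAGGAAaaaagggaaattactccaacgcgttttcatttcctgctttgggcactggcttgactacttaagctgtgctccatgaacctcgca
The motifs were the core of PU.1, a transcription factor of myeloid cells (GAGGAA), the AP-1 motif (TGANTCA), and the C/EBP, ISRE and NF-kappaB consensus sequences, which are bound by factors of the C/EBP, interferon response and NF-kappaB families. No matches overlapped in these 3 windows. The PU.1 core was found before 5 of the 6 members with a window (Clec4d, Clec4e, Clec5a, Clec7a and Clec12a), against 23.3% of 32851 mouse promoter windows of this length. A C/EBP match stood 66 to 59 bases before the start of Clec4e and was also found before Clec12a, against 16.5% of windows. Clec12a held the one AP-1 match (6.75% of windows) and Clec2d the one ISRE match (2.98% of windows), while no NF-kappaB match lay in these windows (7.25% of all windows). The start that RefSeq gives for Clec12a lies inside the gene as the deposited tables place it. These matches are descriptions of letters and were not tested as binding sites.

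LPS-treated cells held far more RNA for the neighbouring receptors Clec4e, Clec4d and Clec4n, moderately more for Clec5a, and far less for Clec7a and Clec12a, while Clec2d was barely detected. Of the 7 members 6 passed the count filter and were tested with edgeR (quasi-likelihood, p-values adjusted over 11916 genes by Benjamini-Hochberg). All 6 were called, at a background of 69.1% of tested genes. Of these, 4 rose and 2 fell, where 34.0% of all tested genes rose and 35.1% fell. Each of the 6 changed by at least 2-fold on this fit, as did 11.1% of all tested genes upward and 11.8% downward. For Clec5a the mean TPM was only 1.68-fold higher in LPS. None of the 6 had overlapping groups, like 73.6% of tested genes. Clec4n passed the filter through its LPS libraries alone, so it could enter only as a gene that differs, and Clec2d was left untested.

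**Figure D1:**
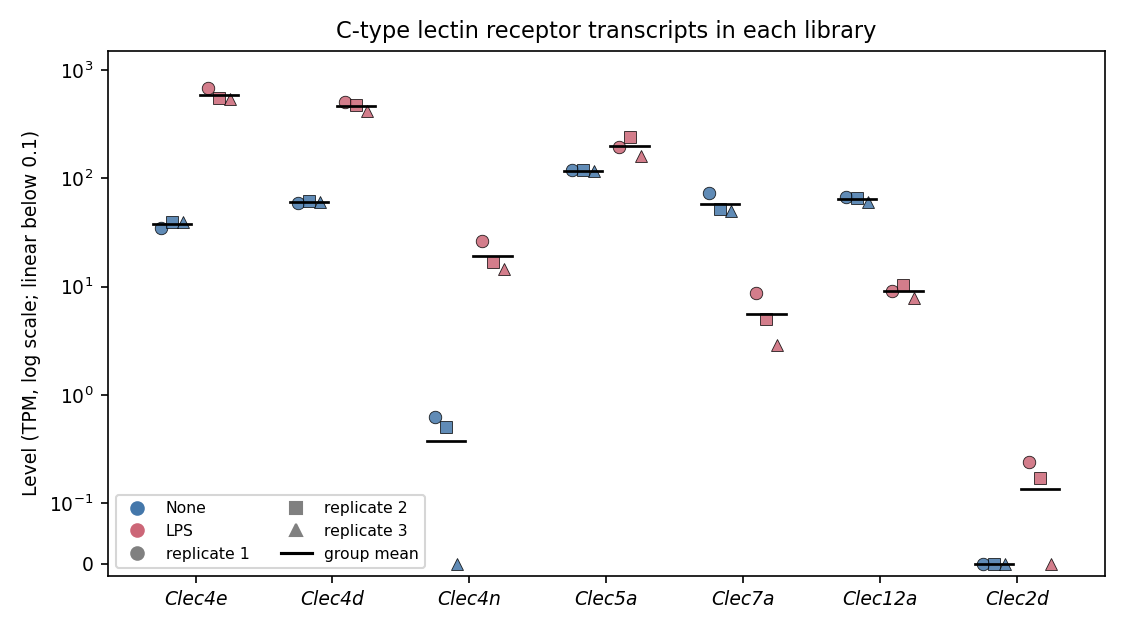
Level of each receptor (TPM, log scale that is linear below 0.1) in the 3 None and 3 LPS libraries, with marker shapes for replicates and a line at the group mean. Clec4e, Clec4d, Clec4n and Clec5a lie higher in every LPS library than in any None library, Clec7a and Clec12a lie lower, and Clec2d lies at or near 0.

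Clec4e encodes Mincle, which binds glycolipids of mycobacteria and a nuclear protein released by dying cells and signals through Fcer1g. It stood at 34.6, 39.3 and 39.4 TPM in None replicates 1 to 3 and at 673, 551 and 543 TPM in LPS replicates 1 to 3. The groups were far apart, and LPS replicate 1 was the highest library. The fit gave a 16.0-fold increase, from 65.9 ± 5.23 to 1053 ± 134 CPM (counts scaled for depth but not for length; SD, n = 3), with a log2 fold change of 4.0 ± 0.11 (SE) and an adjusted p of 2.53e-11 by edgeR. Without LPS replicate 1 the log2 fold change of Clec4e was 3.89.

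Clec4d encodes the related receptor MCL, which can associate with Mincle and binds mycobacterial glycolipid. Its levels were 59.6, 62.0 and 60.8 TPM in None and 504, 469 and 420 TPM in LPS. The None libraries of Clec4d were nearly level (SD 1.21 TPM), and every LPS library was several times higher. It rose 9.02-fold, from 47.2 ± 1.23 to 426 ± 33.9 CPM, with a log2 fold change of 3.17 ± 0.08 (SE) and an adjusted p of 2.05e-11 by edgeR.

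The 2 neighbours did not change equally. The within-library log2 ratio of Clec4e to Clec4d, on TPM with a pseudocount of 1, was -0.77, -0.65 and -0.61 in None and 0.42, 0.23 and 0.37 in LPS, so Clec4d was the higher transcript in each untreated library and Clec4e in each LPS library. The difference was 1.01, and the exact two-sided permutation test gave p = 0.1, the smallest it can give with 3 against 3 libraries (0.15 adjusted over the 3 neighbouring pairs examined).

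Clec4n encodes Dectin-2, a receptor for fungal mannans that also pairs with Fcer1g. It was near the limit of detection in None, at 9, 5 and 0 counts (0.63, 0.51 and 0 TPM), and had 324, 199 and 182 counts in LPS (26.3, 16.7 and 14.5 TPM). No LPS library came near a None library, and LPS replicate 1 was again the highest. The ratio of counts was 69.0, with an exact 95% counting interval from 40.8 to 127, and the fitted log2 fold change of Clec4n was 6.06 ± 0.41 (SE) with an adjusted p of 7.01e-08 by edgeR. This size rests on few None counts: it became 6.94 without None replicate 1, 5.48 without None replicate 3, and 3.86 on log2(TPM + 1), where the pseudocount compresses low levels. The ratio of Clec4n to Clec4d on TPM with a pseudocount of 1, which exceeds the None level of Clec4n, was higher in LPS than in None by 0.95 on the log2 scale with no overlap (exact permutation p = 0.1, adjusted 0.15). It differed by 0.67 on CPM and by 0.73 without None replicate 3.

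Clec5a encodes MDL-1, a receptor that signals through Tyrobp and Hcst and is known as a binding partner of flaviviruses. It was the most abundant of the 7 in untreated cells, at 118, 119 and 116 TPM, and stood at 195, 239 and 159 TPM in LPS. The groups did not overlap, but the LPS libraries of Clec5a spread far more (SD 39.9 TPM) than the None libraries (SD 1.47 TPM). It rose 2.23-fold on the count fit, from 131 ± 3.53 to 293 ± 55.2 CPM, with a log2 fold change of 1.16 ± 0.11 (SE) and an adjusted p of 1.84e-06 by edgeR. Its log2 fold change was 0.72 on log2(TPM + 1) and 0.90 when libraries were scaled by their totals, which shift the median tested gene by -0.20 and -0.26.

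Clec7a encodes Dectin-1, the beta-glucan receptor of macrophages, which carries its activation motif in its own tail. It stood at 73.7, 51.5 and 50.1 TPM in None and at 8.71, 5.05 and 2.91 TPM in LPS. All LPS libraries were far below the None libraries, and replicate 1 was the highest library of each group. Clec7a fell 8.06-fold, from 78.6 ± 17.2 to 9.73 ± 4.70 CPM, with a log2 fold change of -3.01 ± 0.24 (SE) and an adjusted p of 3.17e-07 by edgeR, and its relative spread was the widest of the 5 members that passed the filter in both groups. Its log2 fold change lay between -3.46 without LPS replicate 1 and -2.73 without LPS replicate 3.

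Clec12a encodes MICL, an inhibitory receptor for uric acid crystals that recruits the phosphatases encoded by Ptpn6 and Ptpn11. Levels of Clec12a were 66.7, 66.0 and 60.3 TPM in None and 9.08, 10.4 and 7.84 TPM in LPS. Both groups were tight and lay well apart. It fell 5.95-fold, from 111 ± 2.58 to 18.6 ± 2.78 CPM, with a log2 fold change of -2.57 ± 0.10 (SE) and an adjusted p of 3.06e-10 by edgeR. The activating Clec7a and the inhibitory Clec12a, 97.7 kb apart, both fell. Their within-library log2 ratio, on TPM with a pseudocount of 1, was 0.14, -0.35 and -0.26 in None and -0.05, -0.91 and -1.18 in LPS. The overlap came from LPS replicate 1, and the other LPS libraries lay below all None libraries. The ratio differed by -0.56 between groups (exact permutation p = 0.3), by -0.88 without LPS replicate 1 and by -0.32 without LPS replicate 3.

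Clec2d encodes a lectin-like ligand that is known to engage an inhibitory receptor of natural killer cells, the product of Klrb1b. It had 0 counts in the 3 None libraries, which allows up to 3 counts over the group (0.0525 CPM), and 3, 2 and 0 counts in LPS. The 5 LPS counts have an exact Poisson interval from 1.62 to 11.7, so a difference was not detectable at this depth. Klrb1b was at 0 counts in all 6 libraries.

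**Figure D2:**
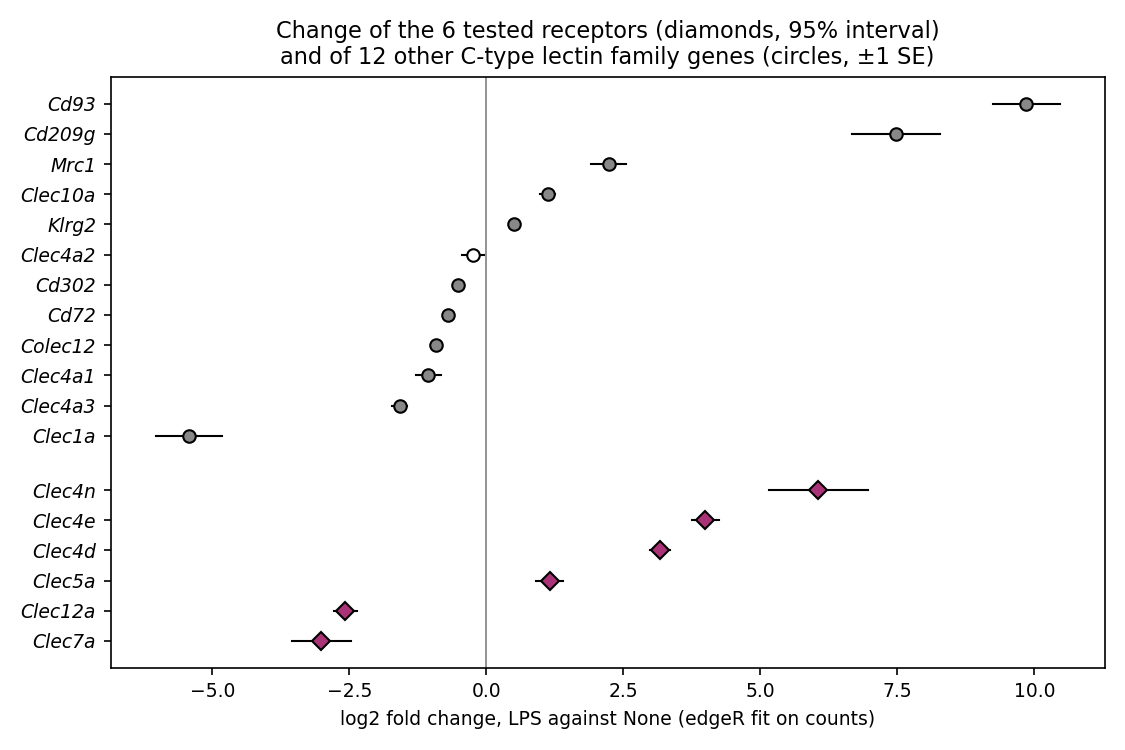
Log2 fold change of LPS against None for the 6 tested receptors (diamonds, 95% interval) and 12 tested family genes (circles, 1 SE; open where not called). The receptors run from -3.01 for Clec7a to 6.06 for Clec4n; the circles of Cd93 and Cd209g are fitted from 0 counts in None and are set by its prior count.

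The order of abundance of the receptors turned over. In untreated cells Clec5a led at 118 ± 1.47 TPM, followed by Clec12a (64.4 ± 3.52), Clec4d (60.8 ± 1.21) and Clec7a (58.4 ± 13.3), whose neighbouring ranges overlapped, and then by Clec4e (37.8 ± 2.71). In LPS Clec4e led at 589 ± 73.0 TPM, followed without overlap by Clec4d (464 ± 42.3), Clec5a (197 ± 39.9) and Clec4n (19.2 ± 6.28). Clec12a (9.09 ± 1.26) and Clec7a (5.56 ± 2.93) came next and their ranges overlapped, although Clec12a was above Clec7a in each of the 3 LPS libraries. The summed level of the 7 genes was 339 ± 13.5 TPM in None and 1285 ± 135 TPM in LPS, 3.79 times as high (exact permutation p = 0.1, the smallest possible).

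Within this sum Clec4e went from 11.2% ± 1.2 to 45.8% ± 2.73 and Clec4d from 17.9% ± 0.945 to 36.2% ± 0.526. Clec5a held 34.7% ± 1.11 in None and 15.4% ± 2.7 in LPS, a lower share despite its higher level. Clec7a and Clec12a held 17.1% ± 3.22 and 19.0% ± 0.539 in None and 0.420% ± 0.182 and 0.709% ± 0.0837 in LPS. For each of the 6 tested members the shares of the groups did not overlap, with an exact two-sided permutation p of 0.1 and an adjusted 0.117 over 7 shares. The shares are parts of the same sum and so are not independent of each other. Clec4n was among the tested members only through its LPS libraries.

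**Figure D3:**
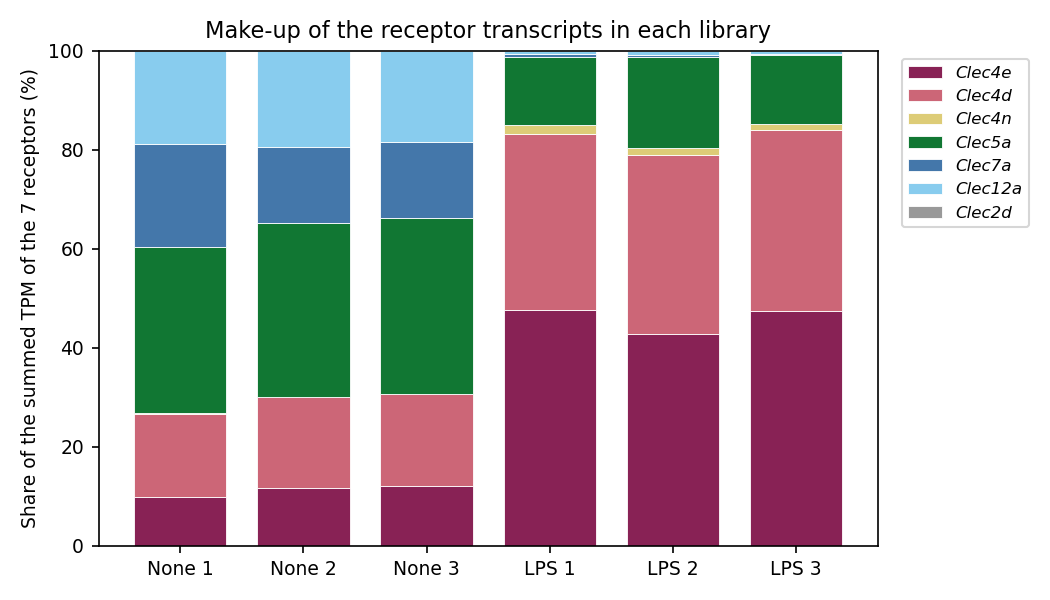
Share (%) of the summed TPM of the 7 receptors held by each, in every library. Clec4e and Clec4d make up 45.8% and 36.2% on average in LPS against 11.2% and 17.9% in None, and the segments of Clec7a and Clec12a shrink to below 1%.

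Most genome neighbours had 0 counts, as did most genes of all types (31783 of 50600). Of 36 other protein-coding genes within 5 places of a member in the RefSeq gene order, 22 had 0 counts and 5 were tested. Of these 5 genes 1 rose and 3 fell, where 34.0% and 35.1% of all tested genes did. Beside Clec4n, Clec4d and Clec4e, the related receptor gene Clec4a3 fell (log2 fold change -1.59) and Clec4a2 was not called (-0.24). Near Clec7a the lectin-like gene Clec1a fell and Gabarapl1, an autophagy gene, rose (1.26). Mgam, a digestive glucosidase gene beyond Clec5a, fell (-1.60) at few counts (59 in None and 14 in LPS). Clec1a and Mgam could not have passed the filter on their LPS counts, so their falls are not independent of it.

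Across the wider family, most genes did not pass the count filter, as was the case over all genes. Of 54 other genes of the C-type lectin family 26 had 0 counts and 12 were tested. Of all 50600 genes, which unlike this list include non-coding genes and pseudogenes, 31783 had 0 counts and 11916 were tested. Among the 12 family genes 5 rose and 6 fell, where 34.0% and 35.1% of all tested genes did. Their median log2 fold change was -0.38, against -0.03 over all tested genes. Cd93, a surface protein linked to the uptake of dying cells, went from 0 counts to 125, 96 and 71 and was at least 133-fold higher, taking 3 counts in all None libraries together as the floor. Cd209g, of the DC-SIGN family, went from 0 counts to 19, 14 and 23 and was at least 25.6-fold higher. These 2 genes passed the filter through LPS alone and Clec1a through None alone. Clec1a went from 136 counts to 2, a ratio of 49.7 with an exact 95% counting interval from 13.5 to 414. Both of these LPS counts were in replicate 2, and the fitted log2 fold change of Clec1a, which depends on the prior count, was -5.43 with that library and -8.34 without it.

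The macrophage mannose receptor gene Mrc1 rose (log2 fold change 2.23) but stayed at 0.82 TPM, and the galactose-binding receptor gene Clec10a rose from 13.2 to 25.2 TPM (1.12). Mrc1 was above the filter in 2 None and 3 LPS libraries, so it passed through LPS. The related receptor genes Clec4a1 (-1.06) and Clec4a3 fell, as did the scavenger collectin Colec12, from 156 to 70.7 TPM (-0.92). The adjusted p-values of these genes lay between 8.93e-07 for Clec4a3 and 0.00119 for Clec4a1 by edgeR. Clec4a2 was called lower (-0.50) with scaling by library totals. The close relatives in the Clec4 cluster can share reads, which makes their estimated counts less certain.

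The adaptors moved in opposite directions. Fcer1g, the partner of Clec4e, Clec4d and Clec4n, rose from 537 to 691 TPM (log2 fold change 0.60 ± 0.09 SE, adjusted p of 8.76e-05 by edgeR). Tyrobp, a partner of Clec5a, fell from 2666 to 1702 TPM (-0.40 ± 0.08, adjusted p of 0.00103 by edgeR). Hcst, also used by Clec5a, fell from 47.9 to 29.1 TPM (-0.46 ± 0.15, adjusted p of 0.0154 by edgeR), and its call was lost without None replicate 1 (0.0580) or None replicate 3 (0.0541) and in DESeq2 (0.0526).

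Of 54 genes listed as adaptors, kinases, relay proteins, transcription factors, inhibitors and protein ligands of these receptors, 51 were tested, with 18 higher (35.3%) and 18 lower (35.3%) and a median log2 fold change of 0.09. These shares are near those of all tested genes (34.0% and 35.1%). Scaling by library totals gave 13 higher and 25 lower, where 22.5% and 51.0% of all tested genes were, and log2(TPM + 1) gave 14 and 21, where 23.3% and 42.8% were. Among 12 kinases 6 rose and 4 fell (34.0% and 35.1% of all tested genes), led by the tyrosine kinases Src (5.99) and Fgr (1.08), while Btk (-0.68) fell. Src had 8, 10 and 8 counts in None and 581, 311 and 337 in LPS and passed the filter through LPS alone. With library totals 4 kinases rose and 6 fell (22.5% and 51.0% of all tested genes). Syk, the kinase that couples the receptors to Card9, had a log2 fold change of 0.21 and an adjusted p of 0.0312 by edgeR, with overlapping groups, and was at -0.04 with library totals and not called. The call of Syk was also lost without None replicate 2 or 3 or LPS replicate 1 or 3 (adjusted p from 0.0538 to 0.144).

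Of 8 relay proteins 2 rose and 4 fell, against 34.0% and 35.1% of all tested genes, or 2 and 5 with library totals, against 22.5% and 51.0%. Malt1 (0.88) and Bcl10 (0.76), which act together below Card9, rose. Card9 had a log2 fold change of -0.27 and an adjusted p of 0.0313 by edgeR, and it lost its call in DESeq2 (0.0519) and on leaving out None replicate 1 (0.114) or 2 (0.0514) or the first LPS library (0.118). The ubiquitin ligase gene Trim62 had a log2 fold change of -1.12 at few counts (63 in None and 21 in LPS). Trim62 was above the filter in 3 None libraries and 1 LPS library, so it passed through None. Its call (adjusted p of 0.0313 by edgeR) was lost without None replicate 1 or 2 or LPS replicate 1 or 3 (0.0782 to 0.121) and in DESeq2 (0.0794). Of the 6 calcineurin and NFAT genes none rose and 3 fell, namely Nfatc1 (-1.43), Nfatc2 (-0.88) and Nfatc3 (-0.43), where 35.1% of all tested genes fell. With library totals 5 fell, where 51.0% did. Of the 5 NF-kappaB subunits 4 rose (34.0% of all tested genes), led by Nfkb2 (1.81) and Relb (1.54), and Rela was at -0.19 and not called. Rela was called lower with library totals (-0.44), on log2(TPM + 1) (-0.39), with the replicate number as a block (-0.18) and without LPS replicate 1 (-0.24).

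**Figure D4:**
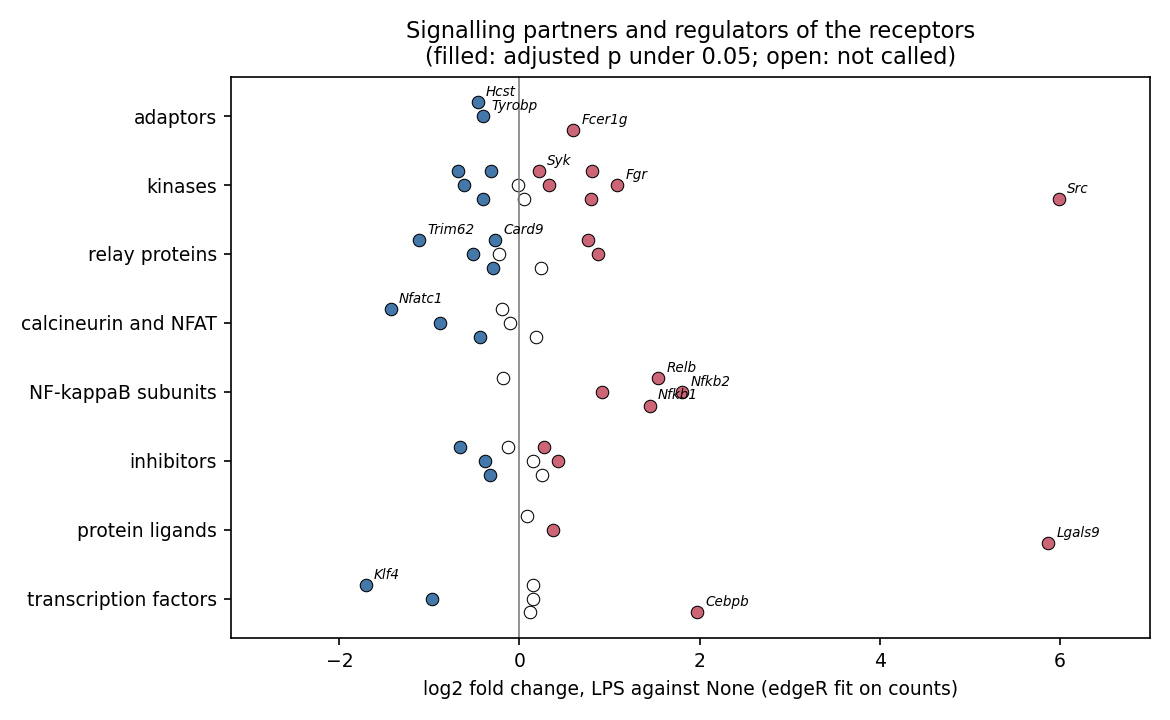
Log2 fold change of LPS against None for the 51 tested partner genes by role, filled where the adjusted p was under 0.05 and open where not called. The NF-kappaB subunits lie mostly to the right (4 of 5 higher) and the NFAT genes to the left (3 lower), with Src at 5.99 and Lgals9 at 5.87 far from the rest.

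Of 8 tested inhibitors 2 rose and 3 fell, near the shares of all tested genes (34.0% and 35.1%), or none and 4 with library totals (22.5% and 51.0%). The lipid phosphatase gene Inpp5d (-0.66) fell, and the deubiquitinase gene Usp15 (0.43) rose, a call lost with library totals (0.17). Ptpn6 and Ptpn11, the phosphatases recruited by Clec12a, were at -0.13 and 0.15 and not called, though Ptpn6 was called lower with library totals (-0.39) and on log2(TPM + 1) (-0.35). Ptpn11 was called higher without None replicate 1 (0.22) or LPS replicate 3 (0.21). Among protein ligands Lgals9, encoding a galectin that binds Dectin-1, went from 24, 26 and 25 counts in None to 995, 1068 and 1157 in LPS (5.87). Sap130 was listed for the nuclear Mincle ligand of that name, but this symbol denotes a different gene. Sap130 rose by 0.37, a call lost with library totals (0.11) and on log2(TPM + 1) (0.14). Of 6 transcription factors tested, Cebpb, a regulator of the Mincle gene, rose (1.98) and Klf4 (-1.71) and Cebpa (-0.97) fell, while Spi1, which encodes PU.1, was at 0.11 and not called.

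Predicted genes and pseudogenes, other than members, were left out of the search for similar profiles. The genes most like each member over the 6 libraries were found by the root mean square difference of log2(CPM + 0.5) profiles, each centred on its None mean. For Clec4e these were Traf1 (0.06), Spink5 (0.12) and Arg2 (0.12), and for Clec4d Scimp (0.06), Osgin2 (0.08) and Calcrl (0.08). Clec5a was closest to Sh3kbp1 (0.08), Tuba4a (0.09) and Il18rap (0.09), and Clec12a to Macrod1, Rcbtb2 and Fry (0.11 to 0.12). Clec7a had more distant matches in Sla (0.24), Hacd4 (0.27) and Pira2 (0.30), as had Clec4n in Slc15a3 (0.28), Gstt4 (0.32) and Ccr1 (0.36). The added 0.5 CPM exceeds the None mean of Clec4n (0.249 CPM), so the matches of Clec4n depend on it. None of the tested members had another member among its closest genes.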

How the data were processed

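RNA of RAW-Blue cells was sequenced as paired reads and filtered with SOAPnuke, per the labels' protocols. STAR 2.7.10a and RSEM 1.3.1 with build GRCm38 appear in the submitters' processing notes. The deposited tables hold the authors' expected counts and, separately, their TPM values, which are scaled for length to the same sum in each library. Strand use was not given in the sources read, so overlapping antisense reads cannot be told apart. The 6 library columns matching the None and LPS labels were used, and 12 others, matching no label, were not.

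Expected counts were rounded. Genes were filtered with filterByExpr (count minimum 10, total 15), scaled by TMM and tested LPS against None, two-sided, with glmQLFit and glmQLFTest of edgeR 4.0.16 in R 4.3.3, adjusted by Benjamini-Hochberg over 11916 genes at 0.05. The steps were also run on simulated data with far fewer changed genes than here and a fixed dispersion. That run cannot show how the scaling behaves under a change this broad. CPM uses TMM-scaled totals. Shares and ratios were computed on TPM with exact permutation tests (scipy 1.17.1). Counting intervals and floors (3 counts) cover counting error only.

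The members and lists were chosen with earlier results of these data known. Named beyond the members are the 8 tested family genes with the largest changes, every adaptor, up to 2 called genes of each signalling list with the largest changes, the 3 closest profiles per member, and the tested neighbours. Other genes were named after their values were seen. One listed gene is not reported here. Promoters and neighbours come from RefSeq (GRCm38.p6), and Clec4n had no promoter entry. Planned protein sequence features were not analysed here. Alternatives were RLE factors, library totals, DESeq2 1.42.0, other filters, limma 3.58.1 on log2(TPM + 1) or log2(TPM + 0.1), a replicate block, and leaving out each library.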

Additional observations from a re-analysis of the deposited data

How the results depend on the processing

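The direction and the call of each of the 6 tested members held in all 15 alternatives, with adjusted p-values of at most 0.00815. Genes called in all numbered 8232, and 7507 to 8777 in the alternatives. Other family genes called higher numbered 5 of 12 in the main analysis, where 34.0% of all tested genes were higher. Without a filter on low counts they numbered 8 of 28, against 22.6% of all tested genes. On log2(TPM + 1) or log2(TPM + 0.1) they numbered 3 of 9, against 23.3% and 23.2%. Clec2d could be fitted only without a filter, with a log2 fold change of 4.06 (adjusted p of 0.0551 by edgeR), which depends on the prior count, and 0.18 on log2(TPM + 1) (adjusted p of 0.126 by limma). On CPM, which is not corrected for length, the differences in share between LPS and None were 0.859, 12.6, 42.7, -14.1 and -24.5 percentage points for Clec4n, Clec4d, Clec4e, Clec5a and Clec12a, against 1.36, 18.2, 34.7, -19.3 and -18.3 on TPM, and the log2 ratio of Clec4e to Clec4d differed by 0.83 against 1.01. Over all tested genes, deviations of libraries with the same replicate number were little correlated (0.08, -0.02 and 0.01). With a replicate block 8362 genes were called. The block took the adjusted p by edgeR from 3.17e-07 to 8.12e-10 for Clec7a and from 7.01e-08 to 2.82e-09 for Clec4n. Pairing of replicates for single members was not tested. Precision is limited by 3 libraries per group and, for Clec4n, by 14 None counts.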

Other observations

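The ratio of estimated count to TPM gives, for each gene, the mean effective transcript length that the deposited values imply. Effective length depends on the sizes of the sequenced fragments as well as on the transcript. It is given here relative to the median gene of the library, for 8663 genes with at least 100 counts in every library. For Clec5a this relative effective length was 0.592 ± 0.0139 in None and 0.694 ± 0.00899 in LPS (SD, n = 3). That was 17.3% greater and without overlap, a larger change than in 93.0% of these genes. For Clec4e the relative effective length was 0.925 ± 0.0250 and 0.835 ± 0.0100, a change of -9.68% without overlap, a larger change than in 86.4% of genes. For Clec4d and Clec12a it was greater by 4.26% and 4.73%, against a median change in size of 3.19% over all these genes. Of these genes 56.6% did not overlap between groups. The annotation (GENCODE M21) lists 4 transcripts of Clec5a from 665 to 3747 bases and 7 of Clec4e from 370 to 4804 bases. Levels of single transcripts were not analysed here.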
